A study of Homo sapiens with 25 samples.

Results

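AsiSI sites in gene bodies beyond promoters are the recognition sequences GCGATCGC that lie within a protein-coding gene, or no more than 2000 bp from one, but more than 2000 bp from the 5′ end of every protein-coding gene. They were chosen by position alone, from the GRCh37 sequence of chromosomes 1 to 22 and X and the gene records of GENCODE release 44 lifted to that build. There were 560 such gene-body sites among 1211 predicted sites. The remainder were 251 promoter sites, within 2000 bp of a protein-coding 5′ end, and 400 sites outside protein-coding genes. BLISS (breaks labelling in situ and sequencing, in which a linker is ligated to free DNA ends in fixed cells) listed 51 of the 560 gene-body sites as cut, or 9.11%. Over all 1211 predicted sites, 17.7% were listed.

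The list came from DIvA cells, a line derived from U2OS osteosarcoma cells that carries AsiSI fused to the oestrogen receptor (AsiSI-ER). Induction with 4-hydroxytamoxifen (4OHT) moves the fusion protein into the nucleus. One condition was 300 nM 4OHT for 4 h (BLISS_Induced) and the other was the same line, with the same transgene, left uninduced (BLISS_Uninduced), with 1 library per condition. The study used the map of breaks to ask what cutting does to transcription of the genes that are hit. The list gives a position and a name for each site and no read count or score, so every site is either listed or unlisted here, the depth is unknown and no spread between experiments can be given. Absence from the list does not by itself show that a site was uncut, and the limit of read enrichment behind the list is not given in the sources used here. An unlisted gene-body site in PRDM16 (chr1:3103043-3103050) was a negative control of the study, reported in earlier work not to be cut. The listed gene-body site at WSCD1 (first base chr17:5973962) was among its positive controls, reported in earlier work to be cut. U2OS is a single tumour-derived line, so its chromatin and copy number need not be those of other cells, and neither was measured here.

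AsiSI recognises an 8 bp palindrome that holds CpG dinucleotides, and the enzyme does not cut when they are methylated. In mammalian genomes most CpGs are methylated and have been lost over evolution, except in CpG islands, which mark many promoters and are usually unmethylated. Many long genes have further promoters inside the gene body, from which shorter transcripts start. A site far from the 5′ end of the gene record can therefore still lie at a transcript start. Gene bodies are also rich in Alu elements, short interspersed repeats of primates.

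The listed gene-body sites covered very different sequence. The windows of 100 bases below (GRCh37, plus strand, 5′ to 3′, recognition sequence in capitals) belong to 2 listed sites with a high and 1 with a low CpG content, and are shown because CpG content is compared between listed and unlisted sites. Windows that overlap an untranslated exon were left out.
RSRP1, listed, coding exon, chr1:25573008-25573107: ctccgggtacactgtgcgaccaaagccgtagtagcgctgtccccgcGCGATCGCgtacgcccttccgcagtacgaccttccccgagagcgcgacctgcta
C14orf93, listed, intron, chr14:23475915-23476014: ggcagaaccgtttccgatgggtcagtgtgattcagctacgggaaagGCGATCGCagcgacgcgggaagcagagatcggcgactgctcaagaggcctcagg
USP48, listed, intron, chr1:22019530-22019629: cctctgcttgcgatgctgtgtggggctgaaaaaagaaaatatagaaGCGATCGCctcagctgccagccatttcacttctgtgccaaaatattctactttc
Beside the CpGs of the recognition sequence, the RSRP1 window held 13 CpGs and the C14orf93 window 8, whereas the USP48 window held 1. RSRP1 encodes an arginine and serine rich protein, GFM1 encodes a mitochondrial translation elongation factor and USP48 a deubiquitinating enzyme. The site in GFM1 was the listed gene-body site with the lowest CpG ratio, 0.159, and that in RSRP1 the one with the highest, 1.11. The CpG ratio is the number of CpGs observed within 500 bp on each side of the site over the number expected from its C and G content.

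Gene-body sites were listed far less often than promoter sites. Of the promoter sites, 128 of 251 were listed (95% Wilson interval 44.8 to 57.1%), against 51 of 560 gene-body sites (9.11%, 6.99 to 11.8%), a difference of 41.9 percentage points (95% Newcombe interval 35.2 to 48.4). Sites outside protein-coding genes were listed at 8.75% (35 of 400). They differed from gene-body sites by 0.357 points, with an interval of -3.46 to 3.94 points that includes 0. Being inside a gene, away from its 5′ end, was thus not accompanied by a difference in listing that was detectable with this number of sites. All such intervals cover counting error over sites only.

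Within gene bodies, listing followed the distance to the nearest start of any annotated transcript. Of the 51 listed sites, 33 (64.7%) were within 2000 bp of a transcript start, against 122 of the 509 unlisted sites (24.0%), a difference of 40.7 points (95% interval 26.5 to 52.9). The median distance to the nearest transcript start was 709 bp in listed and 5858 bp in unlisted sites. The distance to the 5′ end of the nearest protein-coding gene, which the choice of sites bounds from below, had medians of 30021 bp and 29217 bp. Listing was 34.7% within 500 bp of a transcript start (25 of 72 sites), 9.64% from there to 2000 bp (8 of 83), 4.31% from 2000 to 5000 bp (5 of 116), 4.52% from 5000 to 20000 bp (9 of 199) and 4.44% beyond (4 of 90). The rate was thus raised within 500 bp, and beyond 2000 bp the 3 distance ranges had nearly equal rates.

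**Figure D1:**
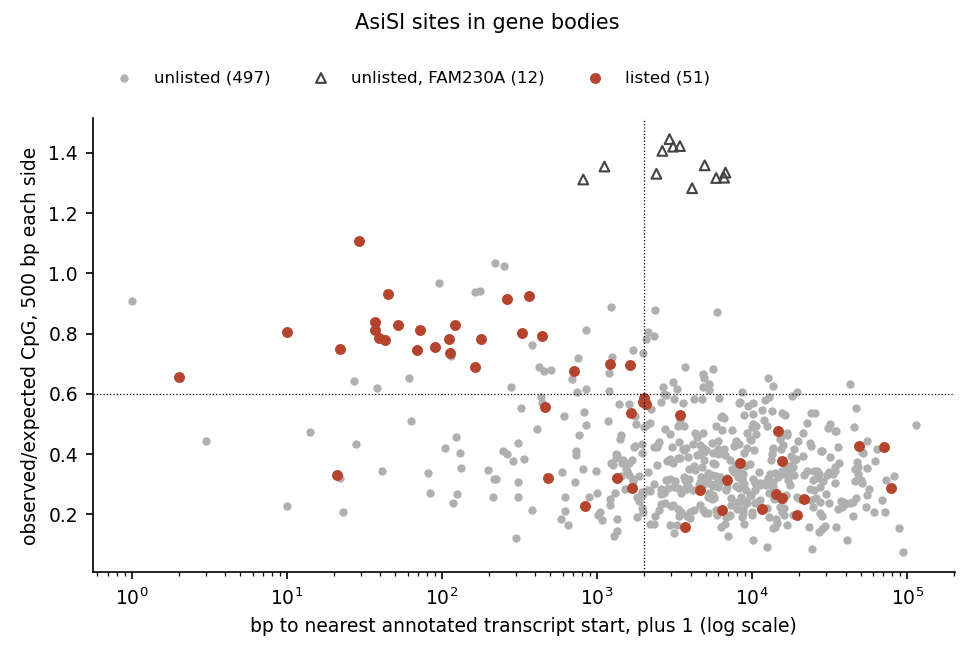
Each point is a gene-body site, placed by its distance in bp to the nearest annotated transcript start (plus 1, log scale) and by the observed/expected CpG ratio within 500 bp on each side. Red points are the 51 listed sites, grey points and open triangles the 509 unlisted ones (triangles, the 12 sites of FAM230A), and dotted lines mark 2000 bp and a ratio of 0.6. Listed sites form a group close to a start with a ratio over 0.6 and a scatter of sites below it at all distances.

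The 8 listed sites nearest to a transcript start were in KLF7, KAZN, COL4A3, SPATA13, RSRP1, CREBZF, SORBS3 and PIK3CD. In KLF7 (ENSG00000118263), a Krüppel-like transcription factor whose expression the study tested by RT–qPCR, the site at chr2:208030727-208030734 lay 7846 bp into the gene and 1 bp upstream of a protein-coding transcript start, with a CpG ratio of 0.656. In KAZN (ENSG00000189337), which encodes kazrin, a protein of cell junctions, the site at chr1:14925222-14925229 lay 705935 bp from the 5′ end of a gene of 1225253 bp. It was nevertheless 9 bp downstream of a start, in a 5′ UTR exon of the canonical transcript, with a CpG ratio of 0.807. In SPATA13, a guanine nucleotide exchange factor, the site was 21 bp from a start and 55.3% of the way along the gene. In PIK3CD, the catalytic delta subunit of phosphoinositide 3-kinase, it was 38 bp from a start in an intron, and in SORBS3, which encodes the adaptor vinexin, 36 bp upstream of one. COL4A3, a collagen of basement membranes, differed from these. Its site, in coding exon 50, was 20 bp from a start but had a CpG ratio of 0.329, and that start belongs to a transcript without a defined coding sequence.

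Further listed sites at starts inside the gene body were in GNE, the enzyme of sialic acid synthesis and another gene tested by RT–qPCR, 68 bp upstream of a start (CpG ratio 0.744), and in NR3C1, the glucocorticoid receptor, 161 bp upstream (0.689). PFKP, the platelet type of phosphofructokinase, had its site 44 bp downstream of a start (0.931), MIB1, a ubiquitin ligase of Notch signalling, 51 bp downstream (0.828), and DAB2, an endocytic adaptor, 89 bp downstream (0.757). TRPS1, a GATA-type transcription factor, had it 110 bp upstream (0.784) and LHX3, a homeobox factor of pituitary development, 176 bp upstream (0.782). Of the 33 listed sites near a start, 30 were near a start of their own host gene and 3 near a start of another gene (those in ADCY10, ARHGAP11B and VSTM2B). The unlisted sites near a start had a start of their host gene nearest in 98 of 122 cases, and the listing rates of 23.4% (30 of 128) at host starts and 11.1% (3 of 27) at others differed by 12.3 points, with an interval of -5.82 to 23.2 that includes 0. The split into host and other starts is partly set by the choice of host. Where a site was next to more than 1 gene, owning the nearest start helped to choose it. Such sites were 5 of the 51 listed and 34 of the 509 unlisted gene-body sites. Sites upstream of the nearest start were listed in 15 of 75 cases and sites downstream of it in 18 of 80. Where the nearest start belonged to a transcript of the protein-coding type, 22 of 59 sites were listed (37.3%), against 11 of 96 where it belonged to another type such as a retained intron or a lncRNA (11.5%). This difference was 25.8 points (95% interval 12.1 to 39.5), but starts of the protein-coding type were also more often CpG-rich (32 of 59 against 16 of 96). Among CpG-rich sites alone, 19 of 32 and 5 of 16 were listed, a difference of 28.1 points with an interval of -1.63 to 50.9 that includes 0. In other sequence, 3 of 27 and 6 of 80 were listed.

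**Figure D2:**
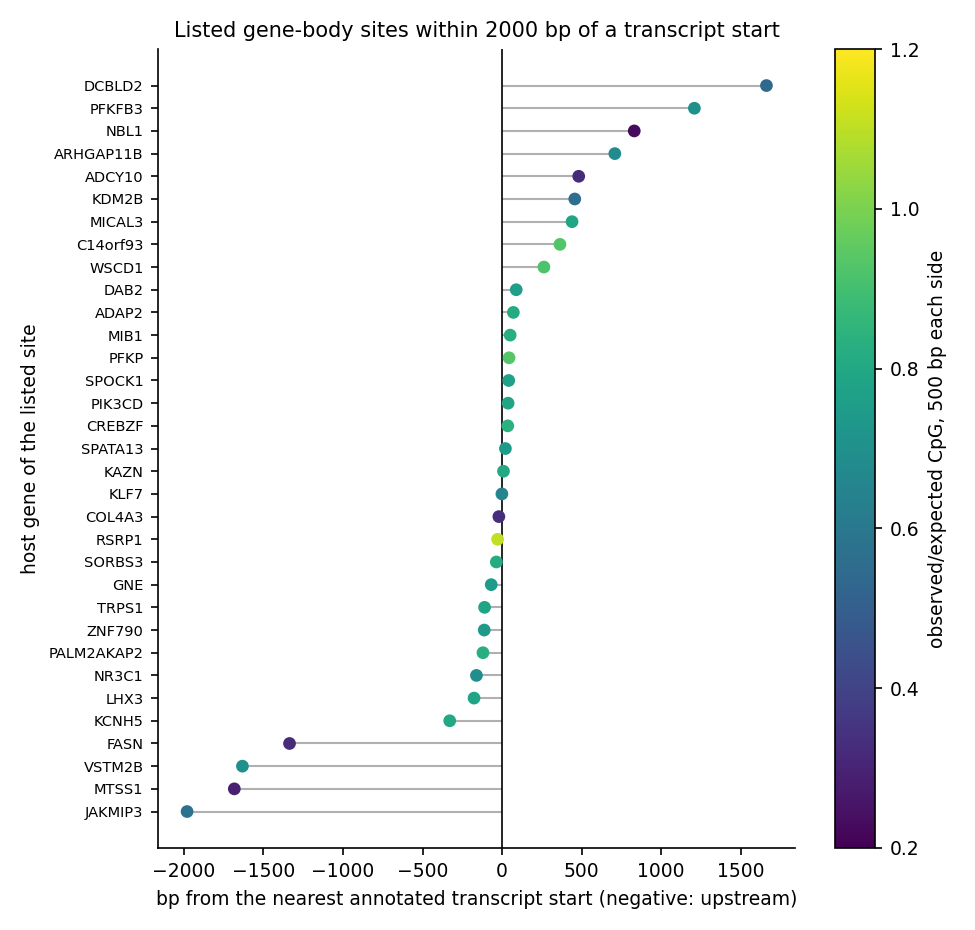
The 33 listed gene-body sites within 2000 bp of a transcript start are placed by their distance in bp from that start along its transcript (negative values are upstream), with 1 row per site labelled by its host gene and coloured by the CpG ratio. Most lie within 500 bp on either side, and the site nearest to a start is that of KLF7, 1 bp upstream.

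Listed gene-body sites also lay in sequence richer in CpG. The median CpG ratio was 0.585 in listed and 0.344 in unlisted sites, the median number of CpGs within 500 bp on each side was 35 and 18, and the median GC content was 53.3% and 47.1%. A window was called CpG-rich with a GC content of at least 50% and a CpG ratio of at least 0.6. This held for 24 of 51 listed sites (47.1%) and 51 of 509 unlisted sites (10.0%), a difference of 37.0 points (95% interval 23.7 to 50.7). In a logistic fit over all 1211 sites with a slope for each class, the odds of listing rose 1.27-fold (95% Wald interval 1.16 to 1.40) per 0.1 of CpG ratio among gene-body sites and 1.47-fold (1.25 to 1.73) among promoter sites. Outside genes the odds ratio was 1.13, with an interval of 0.943 to 1.36 that includes 1. The slopes of the other classes relative to that of gene bodies had ratios of 1.16 (0.955 to 1.40) for promoters and 0.888 (0.722 to 1.09) for sites outside genes, and both intervals include 1. Without the 12 sites of FAM230A, a gene described further on that was left out after its values were seen, the ratio for sites outside genes was 0.688 (0.545 to 0.868), which excludes 1, and that for promoters 0.896 (0.719 to 1.12), which does not. Sites were left out of gene bodies only, so these 2 ratios do not test whether the slopes differ.

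The relation to CpG ratio was not even over its range. Gene-body sites with a ratio under 0.5 were listed at 4.67% (20 of 428), sites from 0.5 to 0.6 at 12.2% (6 of 49), sites from 0.6 to 0.7 at 15.6% (5 of 32) and sites of 0.7 or more at 39.2% (20 of 51). The last group holds 12 unlisted sites of FAM230A, and without them its rate was 51.3% (20 of 39). Of the 6 listed sites from 0.5 to 0.6, 3 are those of JAKMIP3 (ratios 0.568 to 0.585). Their starts are 35 bp apart and they were not separate observations, as described further on.

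**Figure D3:**
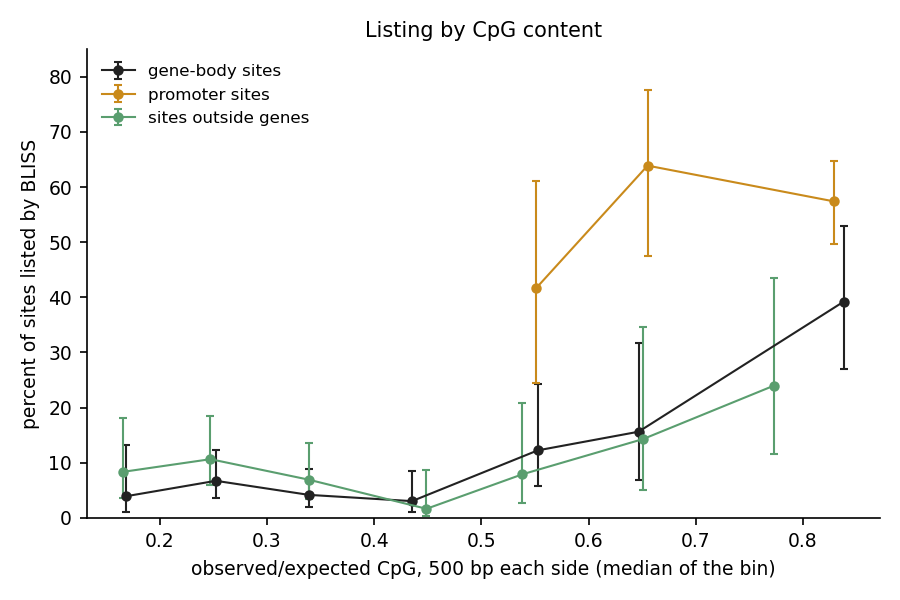
The percent of sites listed by BLISS is plotted against the observed/expected CpG ratio for gene-body sites, promoter sites and sites outside genes, with points at the median ratio of each bin and 95% Wilson intervals, leaving out bins of under 20 sites. In gene bodies the rate stays between 3.03% and 6.72% up to a ratio of 0.5 and reaches 39.2% in the highest bin.

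Nearness to a start and CpG content went together, and each was associated with listing when the other was held in the fit. The fit had no interaction term and so assumed the same CpG slope near and far from starts, which was not tested. Among gene-body sites, the odds ratio per 0.1 of CpG ratio was 1.22 (95% Wald interval 1.10 to 1.35) with nearness in the fit, and that of lying within 2000 bp of a start was 4.70 (2.52 to 8.78) with the CpG ratio in the fit. In counts, 24 of the 48 sites that were near a start and CpG-rich were listed, against 9 of the 107 near a start in other sequence (8.41%), a difference of 41.6 points (95% interval 26.4 to 55.8). Far from starts, none of 27 CpG-rich sites was listed (a count of 0 allows up to 11.1%, taken here and below as 3 over the number of sites, not as a Wilson limit), and 18 of 378 other sites were (4.76%). In sequence that was not CpG-rich, sites near and far from a start differed by 3.65 points, with an interval of -1.08 to 10.7 that includes 0. Of the 27 CpG-rich sites far from starts, 10 were in FAM230A, and 14 of the other 17 have unique flanks. A count of 0 allows up to 17.6% for these 17 sites and up to 21.4% for the 14 with unique flanks. The 17 included sites in LHX2 and HOXC4 and in the downstream flank of NKX2-3, homeobox genes of development, and in ZFPM1, a cofactor of GATA factors.

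When gene-body sites were grouped by distance to a start and CpG content together, the highest listing rate was that of CpG-rich sites with a start within 500 bp. There 22 of 36 sites were listed (61.1%, 95% Wilson interval 44.9 to 75.2%). Promoter sites of the same kind were listed at 64.6% (102 of 158), and the difference of 3.45 points had an interval of -12.6 to 21.2 that includes 0. A difference between these promoter and gene-body sites was therefore not detectable, although one of up to 21.2 points stays within the interval. In sequence that was not CpG-rich the groups differed. Within 500 bp of a start, 10 of 20 such promoter sites were listed against 3 of 36 gene-body sites (8.33%), a difference of 41.7 points (95% interval 17.5 to 62.5). The 3 gene-body sites were those of COL4A3, KDM2B, a histone demethylase, and ADCY10, a soluble adenylyl cyclase. Their CpG ratios ran from 0.321 to 0.557, and the lowest ratio of any listed promoter site was 0.487. Promoter and gene-body sites were not matched for CpG content within this group. The difference was therefore not measured at equal CpG content.

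The other 14 CpG-rich sites within 500 bp of a start were unlisted, although all 14 have unique flanks, as do the 22 listed ones. Their host genes included SLC13A3, CACNA1H, GARNL3, NFIB, PGM5, SLC8A1, BANP, RXRA, PRDM2, CPAMD8, ERCC1, ZBTB4 and WDR81, a list made after their values were seen. NFIB encodes a transcription factor, RXRA a retinoid X receptor and ERCC1 a DNA repair endonuclease subunit. The CpG ratio of these sites ran from 0.621 to 1.03 (median 0.743), and that of the 22 listed sites from 0.656 to 1.11 (median 0.796), so the ranges overlap almost completely. The median distance to the start was 168 bp in the unlisted and 69.5 bp in the listed sites, again with overlapping ranges. Transcription or methylation at these starts in DIvA cells was not analysed here.

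**Figure D4:**
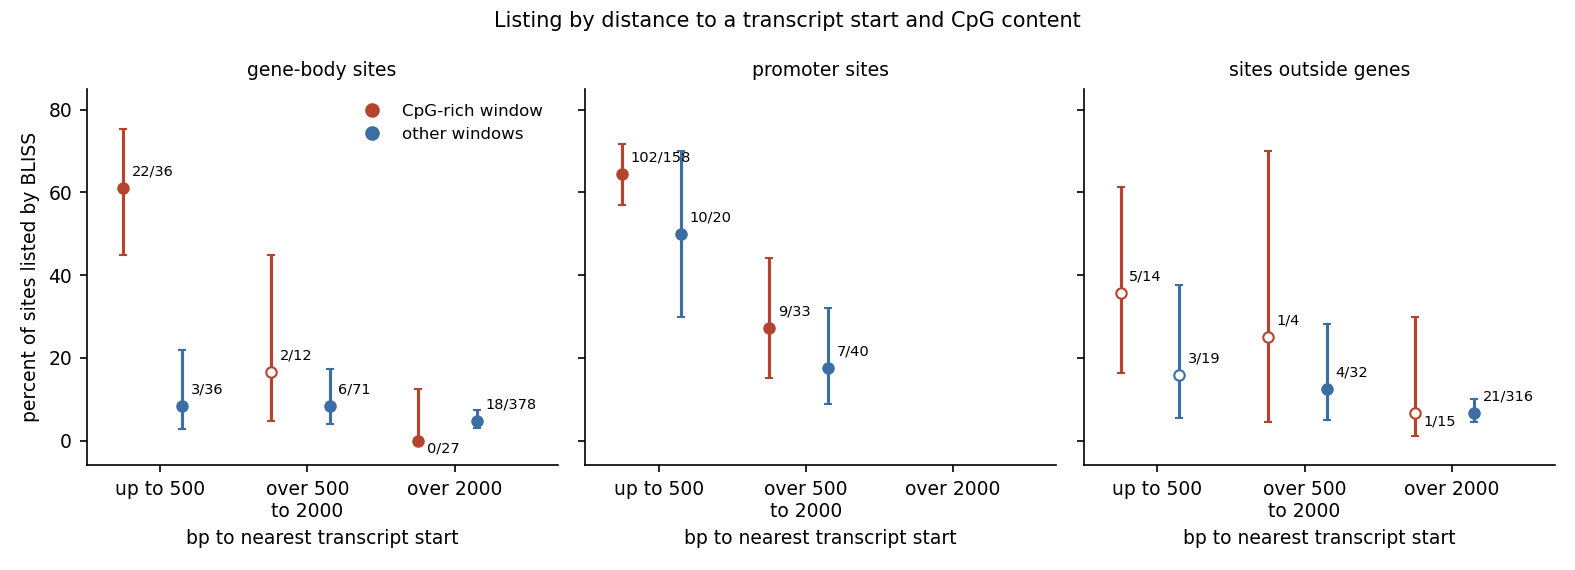
The percent of sites listed by BLISS is shown with 95% Wilson intervals and counts for gene-body sites, promoter sites and sites outside genes, by distance in bp to the nearest transcript start and by CpG content (red, CpG-rich window; blue, other windows; open points, under 20 sites). CpG-rich gene-body sites within 500 bp of a start (22 of 36) stand at nearly the level of promoter sites of that kind (102 of 158), and CpG-rich gene-body sites over 2000 bp from a start (0 of 27) at 0.

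The 18 listed sites more than 2000 bp from every annotated start made up 4.44% of 405 such gene-body sites (95% Wilson interval 2.83 to 6.92%). The rate was 6.65% for sites outside genes at that distance (22 of 331), and the difference of -2.20 points had an interval of -5.80 to 1.12 that includes 0. Their CpG ratio ran from 0.159 to 0.585, with a median of 0.301 against 0.334 in the 387 unlisted sites at that distance. The farthest were in PDE1C, a cyclic nucleotide phosphodiesterase, at 78555 bp from a start, SHISA6, a protein that modulates AMPA receptors, at 70216 bp, and FGF12, a fibroblast growth factor homologue, at 49014 bp. The sites in ANO2, a calcium-activated chloride channel, at 21703 bp, RGS6, a regulator of G protein signalling, at 19331 bp, TMEM132D at 15587 bp, FRMD4B at 15586 bp and CATSPERD, a subunit of the sperm calcium channel, at 14727 bp followed. Of the 18 sites, 12 have unique flanks and 6 do not.

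Of these 18 sites 2 belong to a group in JAKMIP3 (ENSG00000188385), which encodes a protein that binds Janus kinases and microtubules. It holds 3 listed sites whose starts are 35 bp apart in intron 2, at 1980, 2015 and 2050 bp from a start. They are shown together here, with the recognition sequences in capitals, because the 100 bp counted on each side of them by the authors overlap.
JAKMIP3, listed, intron 2, chr10:133928691-133928788: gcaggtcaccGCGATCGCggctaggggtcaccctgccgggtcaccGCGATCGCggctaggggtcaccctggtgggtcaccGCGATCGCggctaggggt
The sites sit in repeats of 35 bp, and reads from 1 cut can fall in the windows of all 3, so they were not separate observations. When groups of sites closer than 10 kb were reduced to 1 site each, the share of listed gene-body sites was 8.82%.

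The 51 listed sites were next to 54 protein-coding genes and the 509 unlisted sites next to 509, and 5 genes were next to both. These genes let sites within 1 gene be compared. They were FRMD4B, KAZN, SHISA6, SPATA13 and ENSG00000273167, a gene that spans SPATA13 and shares its sites. Windows of 4 of these sites are shown on the plus strand of GRCh37, with the recognition sequence in capitals, as examples of listed and unlisted sites in such genes.
FRMD4B, listed, chr3:69419439-69419538: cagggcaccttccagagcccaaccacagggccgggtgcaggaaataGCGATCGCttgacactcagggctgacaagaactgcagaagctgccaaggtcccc
FRMD4B, unlisted, chr3:69558357-69558456: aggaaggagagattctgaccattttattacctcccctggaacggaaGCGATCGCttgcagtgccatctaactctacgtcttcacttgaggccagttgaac
KAZN, unlisted, chr1:15178292-15178391: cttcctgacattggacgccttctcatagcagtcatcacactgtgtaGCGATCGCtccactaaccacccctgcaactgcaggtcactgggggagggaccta
SHISA6, unlisted, chr17:11408437-11408536: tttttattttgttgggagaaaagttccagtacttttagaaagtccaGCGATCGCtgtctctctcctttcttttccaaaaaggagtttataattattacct
In KAZN and SPATA13 the listed site was the one at a start. The listed KAZN site was 9 bp from a start with a CpG ratio of 0.807, and the unlisted one 72281 bp from a start with a ratio of 0.207. The listed SPATA13 site was 21 bp from a start with a ratio of 0.749, and the unlisted ones 3353 and 24931 bp away with ratios of 0.441 and 0.280. In FRMD4B, which encodes a scaffold protein with a FERM domain, the listed site was 15586 bp from a start with a ratio of 0.378. One unlisted site of this gene, with unique flanks, was farther from a start, at 27434 bp, and had a lower ratio of 0.203. The other was nearer, at 1191 bp, with a higher ratio of 0.608, but each of its flanks is present 3 times in the genome. Neither unlisted site of SPATA13 has unique flanks. In SHISA6 it was the listed site, 70216 bp from a start with a ratio of 0.423, that lacks a unique flank on 1 side, whereas the unlisted site, 93297 bp from a start with a ratio of 0.0754, has unique flanks. With so few genes these are descriptions, and no test was made of them.

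Repeated sequence marked many of the unlisted sites. The flanks of a site were called unique when the 31 bases that start at the cut and run outward occur once in GRCh37, on both sides, since the authors kept uniquely mapped reads only. Flanks were unique at 43 of 51 listed sites (84.3%) and 292 of 509 unlisted sites (57.4%), a difference of 26.9 points (95% interval 13.9 to 35.6). It was 13.0 points (0.662 to 20.1) without the Alu-like sites described in the next paragraph. Sites unique on both sides were listed at 12.8% (43 of 335), sites unique on 1 side at 2.14% (3 of 140) and sites unique on neither at 5.88% (5 of 85). The difference between sites unique on both sides and on neither, 6.95 points, had an interval of -0.874 to 12.2 that includes 0. The listed sites without unique flanks were in ARHGAP11B, SHISA6, PDE1C, CTSK, ZFYVE9, CATSPERD, DCBLD2 and GFM1, and whether reads farther out or paired ends place these 8 was not analysed here. With nearness and the CpG ratio in the fit, the odds ratio of listing for unique flanks was 3.49 (95% Wald interval 1.50 to 8.10).

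One run of sequence was shared by many of these sites. The 9 letters CTCACTGCA, or TGCAGTGAG on the other strand, stood 2 bases from the recognition sequence, with up to 2 mismatches, at 182 of 560 gene-body sites (32.5%), 135 of 400 sites outside genes (33.8%) and 23 of 251 promoter sites (9.16%). This run is found in Alu elements. No annotation of repeats was used, so a site with it is called Alu-like only for these letters. PDE1C, a cyclic nucleotide phosphodiesterase, and CTSK, a bone-resorbing protease with its site in the downstream flank, hosted listed sites of this kind, whereas PRKCZ, an atypical protein kinase C, and EPB41L3, a membrane skeleton protein, hosted unlisted ones. Alu-like gene-body sites were listed at 2.75% (5 of 182) and the others at 12.2% (46 of 378), a difference of 9.42 points (95% interval 4.85 to 13.4). Put the other way, the share of Alu-like sites was 25.0 points lower among listed than among unlisted sites with up to 2 mismatches allowed, and 13.6 points lower with the exact letters. The 5 listed ones were in ZFYVE9, CTSK, ADCY10, SHISA6 and PDE1C, and only that of ADCY10 had unique flanks. Of the 225 gene-body sites without unique flanks, 149 (66.2%) were Alu-like. Among sites with unique flanks, 1 of 33 Alu-like sites and 42 of 302 others were listed, and the difference of 10.9 points had an interval of -1.89 to 15.9 that includes 0. Outside genes, Alu-like sites were listed at 8.15% (11 of 135), which was 5.40 points above the rate in gene bodies (95% interval 0.409 to 11.5).

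**Figure D5:**
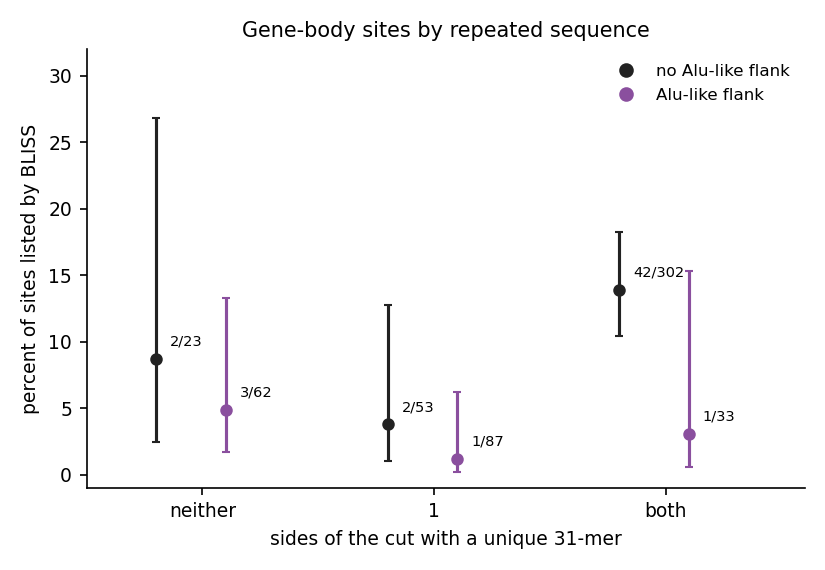
The percent of gene-body sites listed by BLISS is shown with 95% Wilson intervals and counts, by the number of sides of the cut with a unique 31-mer and by the presence of the Alu-like flank. The highest rate is that of sites unique on both sides without the flank (42 of 302).

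FAM230A on chromosome 22 (20692438 to 20716938, plus strand) held the most gene-body sites of any gene, and none of its 12 was listed (a count of 0 allows up to 25.0%). They lie between 69.6% and 93.7% of the way along the gene in its last exon, coding or 3′ UTR by the canonical transcript, and have the highest CpG ratios of all gene-body sites, 1.28 to 1.45, with a GC content of 67.9 to 69.3%. All 12 lack a unique flank on at least 1 side, and the nearest starts, 813 to 6718 bp away, belong to a lncRNA. Without this gene the odds ratio per 0.1 of CpG ratio in gene bodies was 1.64 (95% Wald interval 1.42 to 1.90). The part of repeated sequence in the absence of these sites from the list was not tested.

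Most gene-body sites, listed or not, were in introns. By the canonical transcript of the host gene, 31 of 51 listed sites (60.8%) and 364 of 509 unlisted sites (71.5%) were intronic, and the difference of -10.7 points had an interval of -24.9 to 2.12 that includes 0. Sites in the first intron were listed at 11.5% (12 of 104) and sites in later introns at 6.53% (19 of 291), a difference of 5.01 points with an interval of -0.909 to 12.9. Coding exons held 6 of 51 listed sites (11.8%) and 50 of 509 unlisted ones (9.82%). The 6 were in COL4A3, RSRP1, CREBZF, a basic leucine zipper factor, SPOCK1, an extracellular proteoglycan, ADAP2 and ARHGAP11B, and each but that of ARHGAP11B was within 71 bp of a transcript start. A 5′ UTR exon held 4 listed sites, in KAZN, SPATA13, MIB1 and WSCD1, against 2 unlisted ones, so that 4 of 6 such sites were listed (95% Wilson interval 30.0 to 90.3%). A 3′ UTR exon held 1 listed site, in RGS6, of 22, and the downstream flank 1, at CTSK, of 17. The RGS6 site was 19331 bp from any start and had a CpG ratio of 0.199.

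Listed sites lay at a median of 41.8% of the host gene's length from its 5′ end and unlisted sites at 54.6%, with wide and overlapping ranges. The host genes had median lengths of 148523 and 103105 bp and medians of 12 and 9 annotated transcripts. Whether these medians are separate from the distances to a start given before was not tested. Of all 560 sites, 521 were next to 1 protein-coding gene, 35 next to 2, 3 next to 3 and 1 next to 4. The last, unlisted, is in the protocadherin gamma cluster, next to PCDHGA1, PCDHGA2, PCDHGA3 and PCDHGB1. The 3 sites next to 3 genes, at BLOC1S5, HOXC4 and TCP10L, were unlisted too. The 5 listed sites next to 2 genes were at ARHGAP11B, SPATA13, WSCD1, NBL1 and GNE, the last also next to CLTA, the clathrin light chain A.

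Listed gene-body sites were found on 17 of 23 chromosomes. The most were on chromosome 1 (9 of 51 sites, 17.6%), followed by chromosomes 3 (5 of 28) and 10 (5 of 29, of which 3 are those of JAKMIP3). Chromosomes 4, 6, 16, 20, 21 and X had none among 89 gene-body sites. A count of 0 allows up to 12.5% on chromosome 4 (24 sites), 13.6% on chromosome 16 (22 sites) and 30.0% on chromosome X (10 sites), limits that lie above the overall 9.11%. Another listed site lay within 1 Mb of 13 of the 51 listed sites (25.5%), and a listed site within 1 Mb of 110 of the 509 unlisted sites (21.6%). Of the 13, 4 had one within 100 kb, the 3 in JAKMIP3 and that in PIK3CD.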

How the data were processed

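The authors aligned BLISS reads of 1 induced and 1 uninduced library to GRCh37/hg19 with BWA, allowing 1 mismatch, kept uniquely mapped reads, counted those within 100 bp of each AsiSI site and ranked sites by their enrichment upon induction. The deposited table gives no count or score for any site, so depth is unknown. Here GCGATCGC was searched for in GRCh37 and each predicted site marked as listed if its first base equalled a listed start, which all 214 did. Distances run from the nearest base of the site to a gene or transcript start of GENCODE release 44. A site next to several genes was described by a gene that contains it and has a symbol, then by the owner of the nearest start, then by the shortest.

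Shares have 95% Wilson intervals, except that the limit for a count of 0 is 3 over the number of sites, differences have Newcombe intervals and odds ratios of logistic fits have Wald intervals. With 1 library per condition and no value per site there are no p-values, and an interval that excludes 0 (or 1 for odds ratios) is the threshold used. The functions were tested on simulated data. The genes named are those next to listed and unlisted sites, the hosts of the 8 listed sites nearest to and farthest from a start, of listed sites in coding exons, 3′ UTR exons or downstream flanks, of sites next to most genes, of the 4 highest and lowest CpG ratios, GNE and KLF7. Other names were chosen after seeing their values. The sites and lists were chosen with earlier results of these data known. The Alu-like run, the omission of such sites and of FAM230A, starts of protein-coding type and the term for unique flanks were added after seeing the data. The expression and ChIP-seq libraries were not analysed here, and some sequence windows and 1 gene are not reported here. Computation used Python (3.11.15), statsmodels (0.14.6) for intervals and fits, numba (0.67.0) to count 31-mers, pandas (2.3.3), numpy (2.4.6), scipy (1.17.1) and, for plots, matplotlib (3.10.9).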

Additional observations from a re-analysis of the deposited data

Results flagged for a closer look

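The slope of listing on CpG ratio differed between gene-body sites and sites outside genes once the 12 sites of FAM230A were left out, an omission chosen after seeing the data. No sites were left out of the other classes, so this does not test whether the slopes differ. The odds ratio per 0.1 of CpG ratio was then 1.64 in gene bodies and 1.13 outside genes, and the ratio of the latter to the former was 0.688 (95% Wald interval 0.545 to 0.868, from the interaction term). With FAM230A included this ratio was 0.888 (0.722 to 1.09). The ratio of the promoter slope to that of gene bodies was 0.896 (0.719 to 1.12) without FAM230A and 1.16 (0.955 to 1.40) with it, and both of these intervals include 1.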

How the results depend on the processing

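The choices varied were the promoter limit (1000 or 5000 bp), the flank of the gene body, close neighbours, unique flanks, chromosome X, the limit and type of transcript start, the CpG window and, added after seeing the data, Alu-like sites, FAM230A, starts of protein-coding type, unique flanks as a term of the fit and the mismatches allowed in the Alu-like run. Of 88 differences and odds ratios recomputed, 85 kept their direction and their side of the threshold. Of 20 recomputed shares, 18 stayed within the 95% interval of the value reported. The share of gene-body sites listed was 12.8% with unique flanks only and 12.2% without Alu-like sites, against 9.11%, as both omit groups of sites that were rarely listed. The difference between gene-body sites and sites outside genes turned from 0.357 to -0.130 points with a promoter limit of 5000 bp, both with intervals that include 0. With that limit the difference in intronic sites was -15.9 points (95% interval -31.0 to -1.80), which excludes 0 as the -10.7 points of the 2000 bp limit did not; the cause was not tested. The difference in Alu-like sites, listed minus unlisted, was -25.0 points over all gene-body sites and -8.63 points (-13.2 to 1.58) among those with unique flanks. It was -13.6 points (-19.6 to -2.40) with no mismatch allowed in the run and -21.2 points with up to 3. The difference in unique flanks fell from 26.9 to 13.0 points without Alu-like sites, still excluding 0. The difference in nearness to a start ran from 28.7 to 45.9 points over 12 alternatives, that in CpG-rich windows from 35.6 to 43.5 over 10, and the odds ratio per 0.1 of CpG ratio from 1.23 to 1.64 over 10. The list has no depth, so the effect of deeper sequencing on it is unknown, and 1 library per condition leaves the spread between experiments unmeasured. No paired analysis was possible because both BLISS libraries share a single list of sites.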
